A study of Homo sapiens with 20 samples.

Results

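Expression after siRNA against KDM4C was measured in Rh30, a human alveolar rhabdomyosarcoma cell line that carries a PAX3-FOXO1 fusion gene. The comparison rests on 4 of the 20 arrays of the study, chosen by their titles: 2 siKDM4C arrays and 2 siControl arrays, all taken 72 h after siRNA. The title of siKDM4C replicate 2 reads shRNA, but its source name and treatment read siKDM4C, which was followed. All 17687 genes with a named probe set were tested. The study also holds Rh30 with a KDM4B hairpin (shKDM4B) or a control hairpin (shControl) for 72 h (2 arrays each) and Rh30 and Rh41, another rhabdomyosarcoma line, under QC6352, an inhibitor of KDM4 enzymes, at 200 nM or under DMSO for 48 h (3 arrays each). The labels name no siRNA sequence, no rescue of KDM4C and no protein level. Effects through KDM4C and other effects of the siRNA therefore cannot be told apart.

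KDM4C is a JmjC-domain histone demethylase that removes methyl groups from lysines of histone H3, among them a mark of silent chromatin. It has close relatives in KDM4A and KDM4B, which act on the same lysines, and in KDM4D. Rhabdomyosarcoma cells express muscle regulators such as MYOD1 and myogenin but do not complete muscle differentiation. The fusion protein PAX3-FOXO1 keeps such regulators and growth factor receptors active.

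Each value is the deposited log2 signal of a probe set, so a step of 1 is a doubling. The array medians over all probe sets were 6.75 and 6.72 in siKDM4C against 6.73 and 6.73 in siControl, and the medians of the background probe sets were 3.69 and 3.64 in siKDM4C against 3.67 and 3.74 in siControl. The other Rh30 arrays had medians of 6.95 to 6.99. Levels were therefore compared among the 4 siRNA arrays, and responses were compared between experiments. The exception is the check of labels below. Its genes TBCA, CD68 and SGK1 differed between QC6352 and DMSO by far more than these medians did. Muscle lineage markers were high in all 4 arrays. MYOG, the gene of myogenin, stood at 11.42 and 11.31 in siKDM4C against 11.31 and 11.47 in siControl. CHRNA1, a muscle acetylcholine receptor subunit, stood at 12.04 and 12.14 in siKDM4C against 11.93 and 11.99 in siControl. Marker lists of other cells had lower mean levels, at 5.56 and 5.30 in siKDM4C against 5.33 and 5.45 in siControl for 11 epithelial genes, and 0 of these 11 passed the test. The mean level of 9 blood cell genes was 5.71 and 5.50 in siKDM4C against 5.57 and 5.58 in siControl, and 0 passed. For 8 endothelial genes it was 5.97 and 5.76 in siKDM4C against 5.88 and 5.73 in siControl. For 8 fibroblast genes it was 5.93 and 5.82 in siKDM4C against 5.87 and 5.96 in siControl. In either list 0 genes passed the test. Single levels overlapped those of muscle markers. The fibroblast marker THY1 was at 9.73 and 9.35 in siKDM4C against 9.69 and 9.72 in siControl. The muscle marker PAX3 was at 8.28 and 8.19 in siKDM4C against 8.29 and 8.16 in siControl.

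The labels of these 4 arrays disagree among themselves. The first line of the description calls siKDM4C replicate 1, siControl replicate 1 and siControl replicate 2 DMSO arrays of Rh30, and it calls siKDM4C replicate 2 a QC6352 array. The 10 genes that QC6352 moved most in Rh30, by 3.62 to 4.86 log2, were therefore read in the siKDM4C arrays. They lay at most 0.83 log2 from the siControl mean in siKDM4C replicate 2 and at most 0.56 in replicate 1, and in each array 4 of the 10 lay on the QC6352 side. TBCA, a tubulin folding cofactor, was at 9.94 and 10.23 in siKDM4C against 10.12 and 10.14 in siControl, and averaged 5.13 in the Rh30 arrays titled QC6352 against 9.99 in those titled DMSO. CD68, a lysosomal membrane protein, was at 6.62 and 6.18 in siKDM4C against 6.31 and 6.33 in siControl, and averaged 10.33 under QC6352 against 6.71 under DMSO. SGK1, a kinase induced by stress and steroids, was at 4.78 and 5.73 in siKDM4C against 5.18 and 4.80 in siControl, and averaged 9.37 under QC6352 against 5.26 under DMSO. So SGK1 was higher in siKDM4C replicate 2 than in the siControl arrays, and TBCA and CD68 in that array did not lie on the QC6352 side. Groups formed by that first line hold other Rh30 arrays. By title these are QC6352 replicates 2 and 3 as siKDM4C, and DMSO replicate 3 and QC6352 replicate 1 as siControl. Those groups gave 0 limma calls (2203 genes at an unadjusted p under 0.05).

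The siKDM4C arrays also differed from each other more than other replicates did. The median absolute difference per gene between them was 0.23 log2, against 0.13 between the siControl arrays and 0.11 to 0.19 between replicates of the other 6 groups. The siKDM4C replicate 1 array lay closer to both siControl arrays (0.15 and 0.15) than to siKDM4C replicate 2. The siKDM4C replicate 2 array lay at 0.21 and 0.24 from the siControl arrays. Between the siKDM4C arrays 83 genes differed by more than 1 log2, against 4 between the siControl arrays and 0 to 84 between replicates elsewhere.

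The first question is whether the targeted gene itself fell. KDM4C was at 6.25 and 6.32 in siKDM4C against 6.48 and 6.54 in siControl. Both siKDM4C values lay below both siControl values. The log2 difference was -0.23 ± 0.19 (SE, n = 2 and 2, limma adjusted p = 0.651), which did not pass the threshold of 0.05. This SE and the interval below, like the other SEs given here, use a variance per gene pooled over all groups of the study. They therefore do not measure the spread of the siRNA arrays alone. A fit to the siRNA arrays alone called no gene. The point estimate is a signal 14.6% lower, and the 95% interval of the difference runs from -0.62 to 0.17 log2, so a fall of up to 35.0% remains within it. Protein levels were not analysed here.

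Among its relatives, KDM4B was at 6.62 and 6.45 in siKDM4C against 6.70 and 6.94 in siControl (-0.28 ± 0.23, adjusted p = 0.650). KDM4A was at 8.35 and 8.05 in siKDM4C against 8.09 and 8.03 in siControl (0.14 ± 0.13, adjusted p = 0.704). KDM4D and KDM4E, at 3.36 to 4.09 in the 4 arrays, lay near background. Of the 5 KDM4 genes 0 passed the test. The other 17 histone lysine demethylases measured had 0 members past the threshold and a median difference of 0.03, with the flavin-dependent KDM1B (0.64 ± 0.15, adjusted p = 0.0609) and the nuclear receptor corepressor HR (0.64 ± 0.16, adjusted p = 0.0766) the highest. The 15 methyltransferases and readers of lysines 9 and 36 of histone H3 also had 0 members past the threshold, at a median of 0.02.

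**Figure D1:**
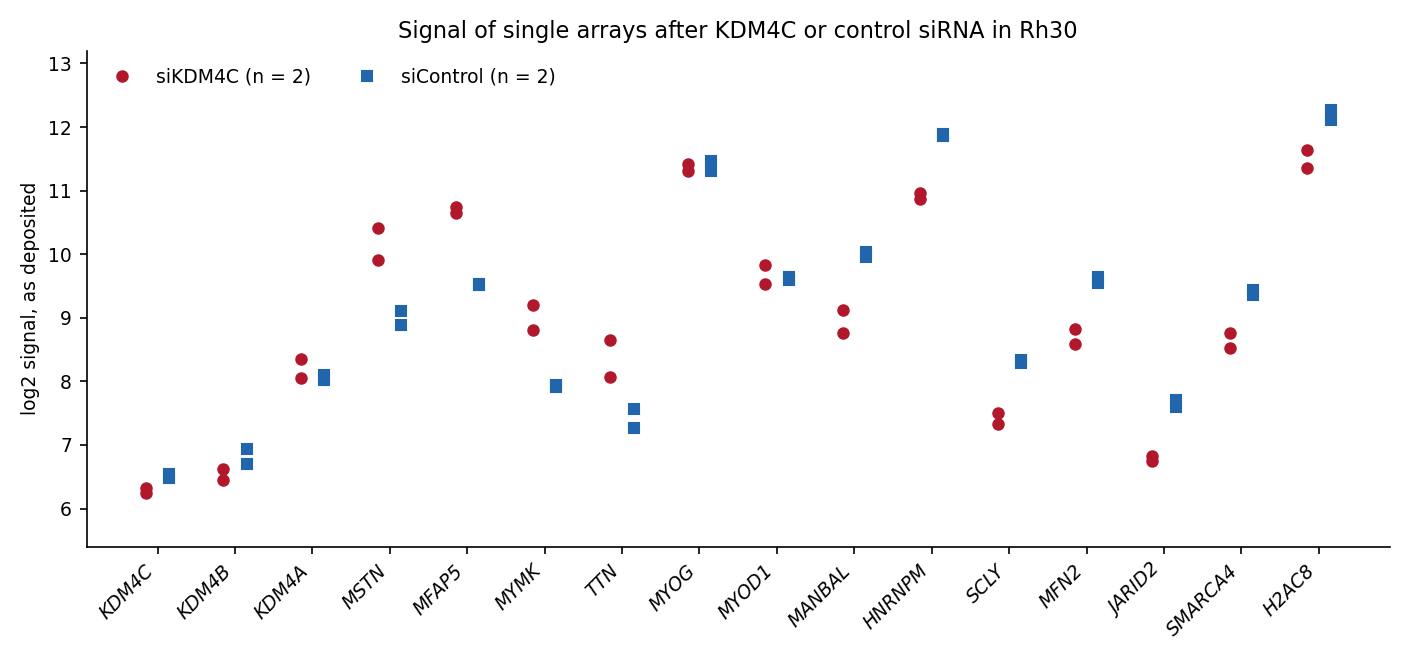
Log2 signal of 16 genes in each siRNA array of Rh30, with siKDM4C arrays as red circles left of siControl arrays as blue squares (n = 2 each). The siKDM4C points of KDM4C lie just below the siControl points, while those of MSTN and MFAP5 lie about 1 log2 above and those of MANBAL, HNRNPM and SCLY about 1 log2 below.

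Over all genes, limma called 81 of 17687 (0.458%), 47 higher (0.266%) and 34 lower (0.192%) after siKDM4C. Of these, 11 rose and 2 fell at least 2-fold, and the rest changed less, down to 0.47 log2. The groups did not overlap in any of the 81, but this was also so for 38.5% of all genes. The size of the responses was uneven between the siKDM4C arrays. Among the 47 genes higher, the median distance from the siControl mean was 0.63 log2 in siKDM4C replicate 1 and 0.90 in replicate 2, which was the farther array for 41 of the 47. Among the 34 lower it was -0.60 in replicate 1 and -0.79 in replicate 2, the farther array for 23 of the 34.

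**Figure D2:**
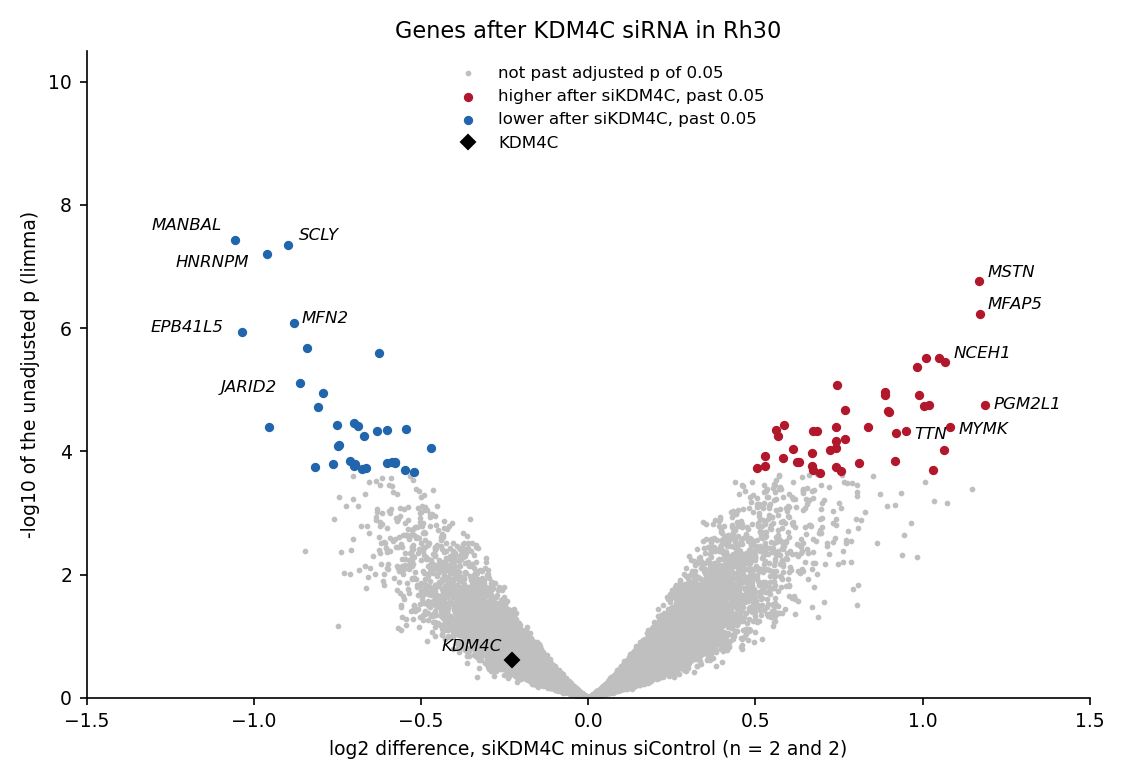
Log2 difference of every gene, siKDM4C minus siControl, against the -log10 of its unadjusted limma p (n = 2 and 2 arrays). The 47 genes higher (red) and 34 lower (blue) past an adjusted p of 0.05 span less than 1.2 log2 in either direction, and KDM4C (diamond) lies among the genes that did not pass.

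The calls rest on few arrays. Without siKDM4C replicate 1 limma called 1789 genes, which hold 80 of the 81. Leaving out siKDM4C replicate 2 gave 9 calls, leaving out siControl replicate 1 gave 14, and leaving out siControl replicate 2 gave 8. The model mattered as well. A fit to the 4 siRNA arrays alone left 0 calls by limma (1191 genes had an unadjusted p under 0.05), while there were 14 in the 14 Rh30 arrays, 9 with array weights, 341 without the lowest 40% of probe sets and 438 with trend and robust eBayes. With only 1 array left in a group, that array is assumed to vary like the other groups. Exactly 5 of the 81 genes passed with any of the 4 arrays left out: MSTN and MFAP5, which rose, and MANBAL, HNRNPM and SCLY, which fell. These 5 did not pass in the fit to the 4 siRNA arrays alone. A further 4, the falls of MFN2, EPB41L5, CBFB and TM9SF4, passed in 3 of the 4 fits. Of the others, 66 passed in 1 fit only, and no further gene described here passed in more than 2.

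The genes that passed with each array left out have different roles. MSTN encodes myostatin, a secreted relative of TGF-beta that restrains muscle growth. It was at 9.91 and 10.42 in siKDM4C against 9.11 and 8.88 in siControl, a 2.25-fold rise (1.17 ± 0.14 log2, adjusted p = 0.000769). MFAP5, a glycoprotein of the microfibrils that surround elastic fibres, was at 10.75 and 10.64 in siKDM4C against 9.53 and 9.51 in siControl (1.17 ± 0.16, adjusted p = 0.00206). Here the siKDM4C arrays differed from each other by far less than from the controls.

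HNRNPM, an RNA-binding protein that regulates splicing, was at 10.87 and 10.96 in siKDM4C against 11.89 and 11.86 in siControl (-0.96 ± 0.11, adjusted p = 0.000371). SCLY, the lyase that releases selenium from selenocysteine, was at 7.32 and 7.51 in siKDM4C against 8.29 and 8.34 in siControl (-0.90 ± 0.10, adjusted p = 0.000371). MANBAL was at 9.12 and 8.77 in siKDM4C against 9.96 and 10.04 in siControl (-1.06 ± 0.12, adjusted p = 0.000371). In these 3 genes the siControl values lay close together and both siKDM4C values lay well below them.

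Muscle genes changed singly rather than as a group. MYMK encodes myomaker, a membrane protein that myoblasts need to fuse. It was at 9.20 and 8.80 in siKDM4C against 7.90 and 7.94 in siControl (1.08 ± 0.20, adjusted p = 0.0204). TTN, the gene of the giant sarcomere protein titin, was at 8.07 and 8.65 in siKDM4C against 7.56 and 7.26 in siControl (0.95 ± 0.18, adjusted p = 0.0204). MYL11, a myosin light chain of fast muscle, was at 7.995 and 7.87 in siKDM4C against 7.14 and 7.32 in siControl (0.70 ± 0.16), with an adjusted p of 0.0566. All 3 genes had siKDM4C values above both controls, but only the first and the second passed the threshold, and MYMK and TTN did not pass once siKDM4C replicate 2 or either siControl array was left out.

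The myogenic factors that stand above these genes gave no call. MYOD1, which starts the muscle program, was at 9.83 and 9.54 in siKDM4C against 9.59 and 9.65 in siControl (0.06 ± 0.15, adjusted p = 0.911), and MYOG had a difference of -0.03 ± 0.12 (adjusted p = 0.959). Of 14 myogenic regulators measured, MYMK alone rose and 0 fell, and the median difference was 0.04 against 0.02 over all genes. Of 49 sarcomere and contractile genes, TTN alone rose and 0 fell (median -0.02). Of 18 genes of myoblast fusion and adhesion, MYMK alone rose (median 0.12). Of 18 genes of myostatin and activin signalling, MSTN alone rose and 0 fell (median 0.12). Its receptor gene ACVR2B had a difference of 0.22 ± 0.21 and the antagonist FST, follistatin, one of 0.23 ± 0.16, neither past the threshold.

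A further 3 genes that passed lie outside the naming rule and were picked after their values were seen. HDAC4, a histone deacetylase that binds and represses MEF2 factors, fell (7.71 and 7.38 in siKDM4C against 8.10 and 8.04 in siControl, -0.52 ± 0.11, adjusted p = 0.0478). VGLL2, a cofactor of TEAD proteins in skeletal muscle, fell as well (8.17 and 8.002 in siKDM4C against 8.67 and 8.77 in siControl, -0.63 ± 0.12, adjusted p = 0.0204). PTBP2, a splicing regulator best known from neurons, rose (9.88 and 10.30 in siKDM4C against 9.17 and 9.24 in siControl, 0.89 ± 0.15, adjusted p = 0.0113).

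The 250 bases before the start of transcription of MSTN and TTN are shown because both muscle genes rose. Myogenic factors such as MYOD1 bind E-boxes, written CANNTG. A site that matches this pattern on 1 strand also matches it on the other. The sequences are from RefSeq, build GRCh38.p14, both on the minus strand, with E-box letters in capitals. The MSTN window lies at chr2:190062730-190062979 and the TTN window at chr2:178807424-178807673.
MSTN: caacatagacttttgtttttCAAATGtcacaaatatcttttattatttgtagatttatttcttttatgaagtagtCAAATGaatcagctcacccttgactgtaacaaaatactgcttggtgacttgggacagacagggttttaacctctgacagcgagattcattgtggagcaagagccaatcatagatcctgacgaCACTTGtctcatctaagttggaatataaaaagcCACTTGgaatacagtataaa
TTN: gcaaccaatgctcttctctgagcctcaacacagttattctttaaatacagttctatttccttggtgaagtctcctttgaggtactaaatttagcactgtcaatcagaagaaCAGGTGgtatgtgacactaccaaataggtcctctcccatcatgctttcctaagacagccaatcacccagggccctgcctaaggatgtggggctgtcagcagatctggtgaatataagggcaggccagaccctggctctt
The MSTN window holds 4 such motifs and the TTN window 1. Among all 35116 RefSeq promoter windows of this length 61.8% hold at least 1, and of the 63 windows that belong to 38 of the 47 genes higher 57.1% do. MYMK and MFAP5 are named only.

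PAX3-FOXO1 targets moved in both directions. CXCR4, the receptor of the chemokine CXCL12, rose (10.09 and 10.19 in siKDM4C against 9.45 and 9.61 in siControl, 0.61 ± 0.12, adjusted p = 0.0317). DCX, a microtubule protein of migrating neurons, rose (7.13 and 7.75 in siKDM4C against 6.50 and 6.55 in siControl, 0.92 ± 0.19, adjusted p = 0.0421). JARID2, which recruits the Polycomb repressive complex 2 to chromatin, fell (6.75 and 6.83 in siKDM4C against 7.60 and 7.70 in siControl, -0.86 ± 0.14, adjusted p = 0.00993). With 2 of 22 targets higher and 1 lower, the list had a median of 0.03. The list's receptor gene FGFR4 had a difference of -0.21 ± 0.11 (adjusted p = 0.406). Of 11 neuronal markers DCX alone rose, and the mean level of that list was 5.16 and 4.87 in siKDM4C against 4.89 and 4.86 in siControl.

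Chromatin genes outside the histones changed in few members. SMARCA4, the ATPase of SWI/SNF remodelling complexes, fell (8.77 and 8.52 in siKDM4C against 9.44 and 9.35 in siControl, -0.75 ± 0.15, adjusted p = 0.0302). Of 11 members of Polycomb repressive complex 2, JARID2 alone fell and 0 rose, while the catalytic subunit EZH2 had a difference of 0.08 ± 0.12 and MTF2 one of 0.52 ± 0.14 (adjusted p = 0.0901). CBFB, the partner subunit of RUNX transcription factors, fell (9.95 and 10.33 in siKDM4C against 10.95 and 11.01 in siControl, -0.84 ± 0.12, adjusted p = 0.00474).

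Replication-dependent histone genes, which are transcribed in S phase to pack new DNA, were lower in both siKDM4C arrays. In 55 of 61 measured genes both siKDM4C values lay below both siControl values, against 16.5% of all genes, and in 0 genes they lay above. The list median was -0.37, against 0.02 over all genes, and it was -0.22 in siKDM4C replicate 1 and -0.50 in replicate 2. The medians of the 5 histone types ran from -0.35 for 17 H2B genes to -0.45 for 9 H3 genes. Past the threshold stood 2 genes, H2AC4 at 8.83 and 8.45 in siKDM4C against 9.42 and 9.49 in siControl (-0.82 ± 0.17, adjusted p = 0.0440) and H2AC8 at 11.64 and 11.36 in siKDM4C against 12.28 and 12.12 in siControl (-0.70 ± 0.15, adjusted p = 0.0432). Neither call was kept when siKDM4C replicate 2 or either siControl array was left out. Without siKDM4C replicate 1 further members passed, all lower, but that fit leaves 1 siKDM4C array. More of all genes passed in it too, in both directions. Over all genes the median in siKDM4C replicate 2 was 0.0050, against -0.50 for the list. Many histone genes are near-identical copies and cross-hybridization of their probes was not examined, so these may not be separate measurements.

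The promoters of H2AC4 and H2AC8 are shown because these are the histone genes past the threshold and the list moved together. CCAAT, a box bound by the factor NF-Y, was searched on both strands, where it reads CCAAT or ATTGG, and is in capitals. The sequences are the 250 bases before the start in RefSeq, build GRCh38.p14, at chr6:26033619-26033868 on the minus strand for H2AC4 and chr6:26216671-26216920 on the plus strand for H2AC8.
H2AC4: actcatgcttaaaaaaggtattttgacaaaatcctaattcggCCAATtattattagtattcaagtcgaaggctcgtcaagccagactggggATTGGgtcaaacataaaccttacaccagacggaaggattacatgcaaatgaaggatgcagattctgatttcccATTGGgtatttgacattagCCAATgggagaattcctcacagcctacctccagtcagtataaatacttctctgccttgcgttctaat
H2AC8: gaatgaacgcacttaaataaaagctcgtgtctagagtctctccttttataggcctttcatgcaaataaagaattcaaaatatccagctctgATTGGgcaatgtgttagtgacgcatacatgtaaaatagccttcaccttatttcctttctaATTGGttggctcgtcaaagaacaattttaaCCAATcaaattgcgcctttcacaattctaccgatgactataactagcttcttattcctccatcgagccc
The H2AC4 window holds 4 such boxes and the H2AC8 window 3. Of 60 windows matched to 57 of the 61 histone genes 83.3% hold at least 1, against 32.0% of all 35116 windows. These windows were taken for the histone list as a whole and not by the response to siKDM4C. A link between the box and the fall was not tested. A match describes the letters and does not show that a factor binds.

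Cell cycle genes gave few calls. CCNE2, the gene of cyclin E2, which drives entry into S phase, rose (8.53 and 9.23 in siKDM4C against 8.03 and 7.93 in siControl, 0.90 ± 0.16, adjusted p = 0.0156). It alone passed among 47 genes of DNA replication and G1/S, and that list had a median of -0.03. In 16 of the 47 both siKDM4C values lay below both siControl values and in 9 above, against 16.5% and 22.0% of all genes. Leaving out siKDM4C replicate 1 let more of the list pass, in both directions, as it did for all genes. Of 55 genes of G2/M and mitosis 0 passed (median 0.01). WEE1, a kinase that holds back mitosis and is named outside the rule, rose (10.26 and 10.59 in siKDM4C against 9.58 and 9.93 in siControl, 0.67 ± 0.14, adjusted p = 0.0440). Homologous recombination and Fanconi repair genes had 0 of 29 past the threshold and a median of 0.13. It was 0.01 in siKDM4C replicate 1 and 0.38 in replicate 2. Over all genes the median was 0.02 in replicate 1 and 0.0050 in replicate 2. Without replicate 1 some repair genes passed, all higher, in a fit where more of all genes passed in both directions.

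Zinc finger and interferon genes had medians above that of all genes. Of 448 numbered ZNF genes 330 had a positive difference, with both siKDM4C values above both siControl values in 155, against 22.0% of all genes. Their median was 0.13, at 0.08 in siKDM4C replicate 1 and 0.23 in replicate 2. Past the threshold were ZNF548 (8.51 and 8.72 in siKDM4C against 7.62 and 7.51 in siControl, 1.05 ± 0.16, adjusted p = 0.00496) and ZNF480 (0.77 ± 0.15, adjusted p = 0.0247), both zinc finger genes of chromosome 19, and 0 fell. Without siKDM4C replicate 1 more of the list and more of all genes passed, in both cases more often higher than lower. Whether the list passed more often than all genes was not tested. ZNF480 did not pass once siKDM4C replicate 2 or either siControl array was left out. ZNF548 did not pass without siKDM4C replicate 2 or without siControl replicate 2. IFIT3, an interferon-induced protein with antiviral activity, was at 7.06 and 7.35 in siKDM4C against 6.10 and 6.46 in siControl (0.92 ± 0.17, adjusted p = 0.0210). It was the only one of 43 interferon-stimulated genes past the threshold (median 0.11). IFIT3 did not pass once siKDM4C replicate 2 or either siControl array was left out. Without siKDM4C replicate 1 further interferon genes passed, all higher, in a fit where more of all genes passed in both directions. The interferon median was 0.16 in siKDM4C replicate 1 and 0.07 in replicate 2, against 0.02 and 0.0050 over all genes. The 12 genes of the RNA interference machinery had 0 past the threshold, with a median of -0.04.

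Matrix and membrane genes were among the larger rises. LOX, the enzyme that cross-links collagen and elastin, was at 7.46 and 8.39 in siKDM4C against 6.89 and 6.90 in siControl (1.03 ± 0.22, adjusted p = 0.0458), with siKDM4C replicate 2 the farther array. Of 64 genes of microfibrils, elastic fibres and collagens MFAP5 and LOX rose and COL9A2, a cartilage collagen chain, fell (-0.55 ± 0.12, adjusted p = 0.0458), around a median of -0.03. HAS2, which makes hyaluronan and is named outside the rule, rose (9.22 and 9.50 in siKDM4C against 8.57 and 8.68 in siControl, 0.74 ± 0.14, adjusted p = 0.0258). ARHGAP29 rose (8.32 and 8.77 in siKDM4C against 7.62 and 7.44 in siControl, 1.01 ± 0.15, adjusted p = 0.00496).

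The largest rise of all was in PGM2L1, the synthase of glucose 1,6-bisphosphate, at 8.18 and 8.90 in siKDM4C against 7.49 and 7.21 in siControl (1.19 ± 0.21, adjusted p = 0.0145). NCEH1, a neutral cholesterol ester hydrolase, stood at 7.78 and 7.97 in siKDM4C against 6.79 and 6.82 in siControl (1.07 ± 0.16, adjusted p = 0.00518). RAB30, a small GTPase of the Golgi (1.06 ± 0.21), HYCC2, of a lipid kinase complex at the plasma membrane (1.02 ± 0.18), LMBRD2 (1.00 ± 0.17), the carnosine methyltransferase CARNMT1 (0.98 ± 0.15) and the phosphatase PHOSPHO2 (0.99 ± 0.17) complete the largest rises. PHOSPHO2 lay near background, at 4.50 and 4.67 in siKDM4C against 3.55 and 3.64 in siControl, and it overlaps the readthrough gene PHOSPHO2-KLHL23, which also passed.

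Among the larger falls, MFN2, which fuses the outer membranes of mitochondria, was at 8.83 and 8.59 in siKDM4C against 9.64 and 9.54 in siControl (-0.88 ± 0.12, adjusted p = 0.00247). It alone changed among 12 genes of mitochondrial fusion and fission. Its relative MFN1 had a difference of 0.10 ± 0.13. EPB41L5, a protein of cell polarity and adhesion, was at 5.90 and 6.17 in siKDM4C against 7.26 and 6.88 in siControl (-1.04 ± 0.15, adjusted p = 0.00290). DZIP1, a ciliary protein, was at 7.29 and 8.08 in siKDM4C against 8.61 and 8.67 in siControl (-0.95 ± 0.18, adjusted p = 0.0204), and here siKDM4C replicate 1 was the farther array. Further falls were in RHBDL1 (-0.81 ± 0.14), DMBT1 (-0.79 ± 0.13), LRRC8A, a subunit of the volume-regulated anion channel (-0.75 ± 0.14), HCFC1R1 (-0.75 ± 0.15) and CHCT1 (-0.76 ± 0.16, lower level near background).

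Among the housekeeping lists, HNRNPM alone passed with all arrays fitted. Of 33 hnRNP and SR splicing genes HNRNPM alone fell and 0 rose (median 0.04). Of 53 cytosolic ribosomal proteins (median -0.09), 66 genes of oxidative phosphorylation (-0.13), 34 of MYC and ribosome biogenesis (-0.08), 25 heat shock and chaperone genes (-0.14) and 23 of cholesterol and fatty acid synthesis (-0.13), 0 passed in either direction. Nor did any of 24 lysosome and autophagy genes (0.01), 27 genes of the unfolded protein response and ATF4 (-0.0031) or 22 p53 targets (0.03). These zeros depend on siKDM4C replicate 1. Without it 1 siKDM4C array is left, and members of each of these lists passed, as did far more of all genes. Whether the lists passed more often than all genes was not tested. The median over all genes was 0.02 in siKDM4C replicate 1 and 0.0050 in replicate 2. The ribosomal and oxidative phosphorylation medians were lower in siKDM4C replicate 2, at -0.18 and -0.19, against -0.0029 and -0.0085 in replicate 1. The part that array-wide differences of siKDM4C replicate 2 play in these shifts was not tested.

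**Figure D3:**
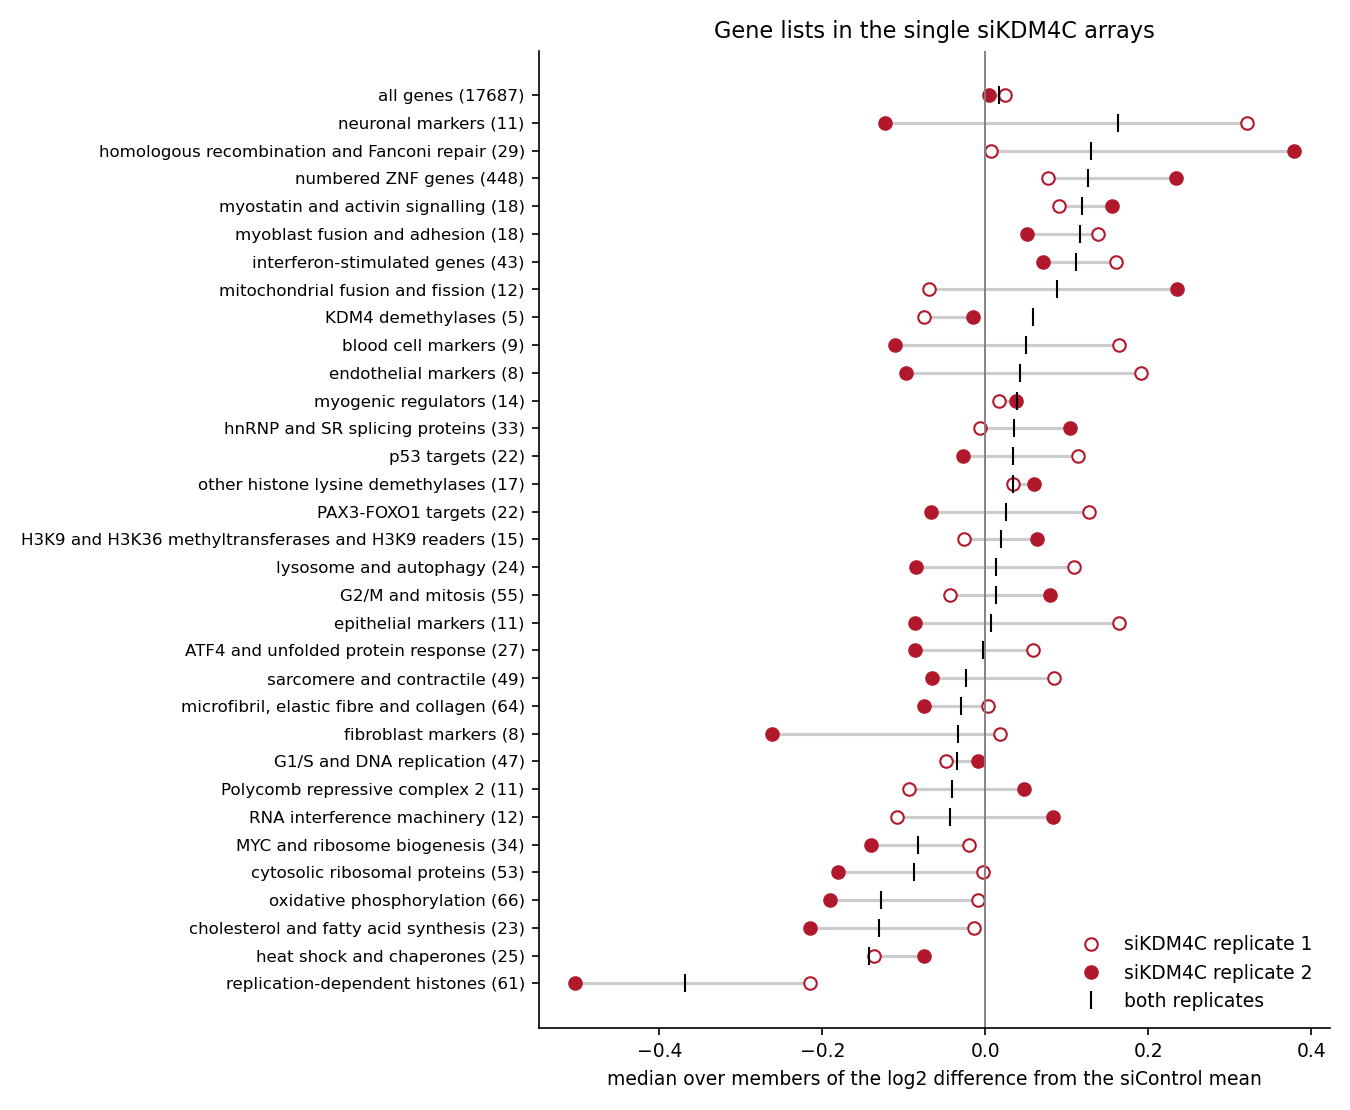
Median over the members of each gene list of the log2 difference from the siControl mean, for siKDM4C replicate 1 (open circles), replicate 2 (filled circles) and both (ticks), with the number of measured genes in brackets. The histone list is lowest in both arrays, at -0.22 and -0.50, while the homologous recombination list lies at 0.01 in replicate 1 and 0.38 in replicate 2.

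The next question is where the response to siKDM4C differed from that to the KDM4B hairpin, whose arrays and controls are separate. The hairpin comparison called 11.6% of genes and KDM4C siRNA 0.458%. A test of the difference between the responses called 1148 genes (6.49%), 788 with a higher value after siKDM4C (4.46%) and 360 with a lower one (2.04%). The responses differed in 27 of the 47 siKDM4C rises and 18 of the 34 falls. These genes were chosen by the siKDM4C response, which also enters the difference. The choice favours such calls, also for single genes so chosen. Of the 47 genes higher after siKDM4C, 13 were also higher with the hairpin, which is 27.7% of the siKDM4C rises and 1.40% of the 931 hairpin rises, beside 5.26% of all genes higher with the hairpin. Another 6 of the 47 were lower with the hairpin. Of the 34 lower after siKDM4C, 7 were lower with the hairpin (20.6% of the siKDM4C falls, 0.627% of the 1116 hairpin falls, beside 6.31% of all genes) and FBXO42 was higher.

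Among the genes that the naming rule picked, MYMK differed most between the siRNA and the hairpin. It rose after siKDM4C (1.08) and fell with shKDM4B (-1.76 ± 0.20), a difference of 2.85 ± 0.28 (adjusted p = 1.30e-05). MYL11, which did not pass for siKDM4C, also differed (0.70 against -1.18 ± 0.16, difference 1.87 ± 0.22, adjusted p = 7.03e-05). CCNE2 rose after siKDM4C and fell with the hairpin (0.90 against -0.89 ± 0.16, difference 1.79 ± 0.23, adjusted p = 0.000106). The responses of MSTN (1.17 against -0.03 ± 0.14), TTN (0.95 against -0.54 ± 0.18), MFN2 (-0.88 against 0.28 ± 0.12), MANBAL (-1.06 against 0.30 ± 0.12), HNRNPM (-0.96 against -0.08 ± 0.11), SCLY (-0.90 against -0.09 ± 0.10) and MFAP5 (1.17 against 0.27 ± 0.16) also differed, with adjusted p from 7.81e-05 to 0.0184.

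In other genes no difference from the hairpin was found. LOX (1.03 against 1.47 ± 0.22), NCEH1 (1.07 against 1.57 ± 0.16), ARHGAP29 (1.01 against 0.86 ± 0.15) and IFIT3 (0.92 against 0.78 ± 0.17) rose in both comparisons, and SMARCA4 (-0.75 against -0.66 ± 0.15), DZIP1 (-0.95 against -0.75 ± 0.18) and H2AC4 (-0.82 against -0.73 ± 0.17) fell in both. The adjusted p of their differences ran from 0.242 to 0.898, which does not show that the responses are equal. Of the 61 histone genes 0 differed between the siRNA and the hairpin, whose list median was -0.41 with 18 members lower. KDM4B itself did not differ by this test (-0.28 against -0.94 ± 0.23, adjusted p = 0.297), nor did KDM4C (-0.23 against -0.27 ± 0.19, adjusted p = 0.962).

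QC6352 blocks several KDM4 enzymes at once, and its response in Rh30 was set beside that of siKDM4C, again with separate controls. The times differ as well, with 48 h for QC6352 and 72 h for the siRNA. The inhibitor changed 36.3% of genes and the responses differed in 4277 (24.2%), with 2224 higher after siKDM4C (12.6%) and 2053 lower (11.6%). They differed in 26 of the 47 rises and 21 of the 34 falls. As with the hairpin, these genes were chosen by the siKDM4C response, which favours such calls. Of the 47 genes higher after siKDM4C, 24 rose under QC6352 (51.1% of the siKDM4C rises, 0.682% of the 3517 rises under QC6352, beside 19.9% of all genes) and 10 fell. Of the 34 lower, 14 fell under QC6352 (41.2% of the siKDM4C falls, 0.481% of the 2910 falls, beside 16.5% of all genes) and 7 rose.

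Among the genes that the naming rule picked, MSTN differed most. It rose after siKDM4C (1.17) and dropped under QC6352 (-3.51 ± 0.12), a difference of 4.68 ± 0.19 (adjusted p = 8.21e-12). MYMK (1.08 against -2.20 ± 0.16, difference 3.28 ± 0.26, adjusted p = 3.81e-08) and MYOG (-0.03 against -2.63 ± 0.10, difference 2.60 ± 0.16, adjusted p = 1.37e-09) differed likewise. The histone genes fell further under QC6352, where 51 of 61 passed with a median of -1.08, and 38 of the 61 differed between the responses, among them H2AC8 (-0.70 against -3.95 ± 0.12, difference 3.26 ± 0.19, adjusted p = 9.33e-10).

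MANBAL, HNRNPM and SCLY had QC6352 differences of -0.0024 ± 0.10, 0.02 ± 0.09 and -0.0022 ± 0.08, and their responses differed with adjusted p from 3.64e-05 to 4.19e-05. TTN (0.95 against 0.84 ± 0.15), PGM2L1 (1.19 against 0.84 ± 0.17), CXCR4 (0.61 against 0.77 ± 0.10) and MFAP5 (1.17 against 0.75 ± 0.13) rose in both, and JARID2 (-0.86 against -1.35 ± 0.11) and SMARCA4 (-0.75 against -0.58 ± 0.12) fell in both. Their differences did not pass the threshold, with adjusted p from 0.0557 to 0.803. IFIT3 rose less after siKDM4C (0.92 against 2.18 ± 0.14, difference -1.26 ± 0.23, adjusted p = 0.000371).

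**Figure D4:**
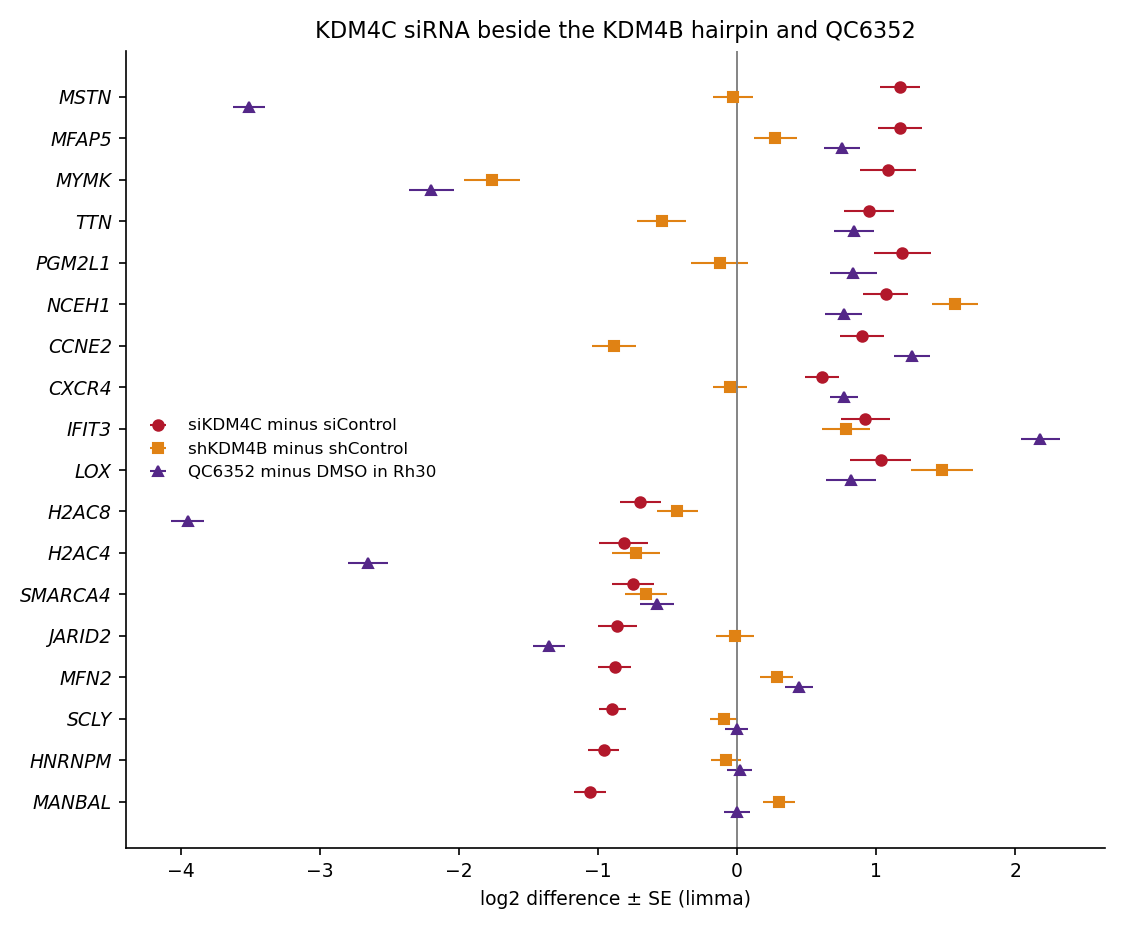
Log2 difference ± SE from limma of 18 genes for siKDM4C minus siControl (circles, n = 2 and 2), shKDM4B minus shControl (squares, 2 and 2) and QC6352 minus DMSO in Rh30 (triangles, 3 and 3). The SE uses a variance per gene pooled over all groups of the study. MSTN lies at 1.17, -0.03 and -3.51 in that order, while SMARCA4 lies at -0.75, -0.66 and -0.58.

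**Figure D5:**
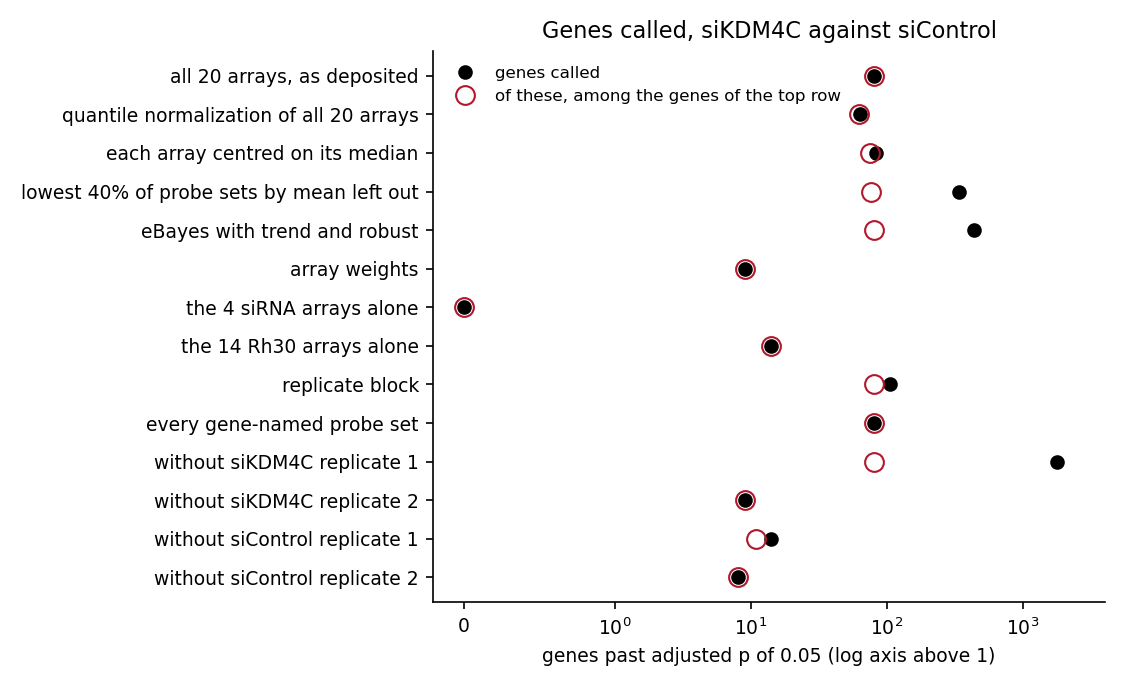
Number of genes past an adjusted p of 0.05 for siKDM4C against siControl under the settings shown (black points, log axis above 1) and how many of these are among the 81 genes of the top row (open red circles). The count is 1789 without siKDM4C replicate 1 and 8 to 14 without any other siRNA array.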

How the data were processed

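Total RNA of 20 arrays (Affymetrix Clariom S human) was measured, with an input of 125 ng per the labels. The deposited values are log2 signals per probe set, made by the authors with GCOS per the submitters' processing notes. The sources used here give neither its version nor the normalization, and no further scaling was applied. Of 24351 probe sets 17709 carry 1 gene symbol, all matched to current RefSeq names by Entrez identifier. The probe set with the highest mean stood for each gene. Groups followed titles and source names. The members, gene lists and tests were chosen with earlier results of these data known.

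The test across genes was limma 3.58.1, run in R 4.3.3 (lmFit, eBayes without trend, 8 group means over 20 arrays, 12 residual degrees of freedom), with Benjamini-Hochberg adjustment over 17687 genes and a threshold of 0.05. The probability scale of the volcano plot is the -log10 p of this fit. Replicates are biological per the labels, and n = 2 limits the precision. The fit was tested on simulated data. Gene lists were described by counts and medians, with no set test. Genes were named by a rule: the KDM4 genes, 6 muscle and chromatin genes, the 15 largest rises and falls past the threshold, and up to 2 per list. Other genes, list members given for context included, were picked after their values were seen. The replicate numbers were not shown to pair the siRNA arrays: deviations of same-numbered arrays had a Pearson r of -0.215 across genes. Alternatives covered normalization, dim probe sets, the variance model, array weights, the arrays fitted, a replicate block, a fold threshold, the groups by sample name and leaving out each siRNA array.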

Additional observations from a re-analysis of the deposited data

Results flagged for a closer look

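Transcript probe sets without a gene name lay outside the tests above. Of 3739 such probe sets limma called 5 (0.134%) for siKDM4C against siControl, 3 higher and 2 lower. The farthest had log2 signals of 7.11 and 7.51 in siKDM4C against 8.73 and 8.63 in siControl (-1.37 ± 0.15 SE, adjusted p = 0.000108). A group of 2 arrays is too small for a test of single outlying arrays.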

How the results depend on the processing

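The count of 81 genes was 64 after quantile normalization, 83 with arrays centred on their medians and 68 with an added 1.5-fold threshold. It was 341 without the lowest 40% of probe sets, 438 with trend and robust eBayes, 9 with array weights, 14 from the 14 Rh30 arrays, 0 from the 4 siRNA arrays alone (1191 at an unadjusted p under 0.05) and 8 to 1789 with 1 siRNA array left out. With the replicate number as a block it was 105, and with the numbers crossed, a pairing added after seeing the data, 276. By sample name, where the groups hold arrays titled QC6352 or DMSO instead, limma called 0 (2203 unadjusted).

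The difference from the hairpin called 642 genes in the Rh30 arrays, 140 by sample name and 596 to 2180 with 1 siRNA array left out. The difference from QC6352 called 1 gene by sample name and 3322 to 4764 with 1 siRNA array left out. The unnamed probe sets gave 3 calls after quantile normalization, 13 with trend and robust eBayes, 1 with array weights, 1 from the Rh30 arrays, 0 from the 4 siRNA arrays (237 unadjusted), 0 by sample name (408 unadjusted) and 1 to 172 with 1 siRNA array left out.

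By sample name 12 named genes changed sign: MYMK (-0.85), MSTN (-1.68), CARNMT1 (-0.0920), MANBAL (0.00129), EPB41L5 (0.0130), MFN2 (0.19), RHBDL1 (0.36), CHCT1 (0.0663), LRRC8A (0.58), SMARCA4 (0.0373), HCFC1R1 (0.87) and DCX (-0.38). By title those groups hold QC6352 arrays as siKDM4C, and a DMSO and a QC6352 array as siControl. The 4 siRNA arrays are not in them. Of the remaining gene values under alternatives 389 kept direction and call, 188 kept direction and lost the call, 2 gained it and 8 uncalled values changed sign. Why counts moved between settings was not tested beyond the smaller numbers of arrays and genes.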
